A study of Mus musculus with 2 samples.

Results

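Transfer RNA genes that lie away from protein-coding genes were examined for binding of Brg1 in mouse medulloblastoma. Members were the nuclear tRNA genes of RefSeq (GRCm38.p6, mm10) whose ends both lay over 5 kb from any end of a protein-coding gene. There were 297 such genes among the 430 tRNA genes annotated. Of the others, 106 lay within 5 kb of a coding gene end, 22 were mitochondrial and 5 carried positions of scaffolds rather than of the chromosomes. The rule itself took 300 genes, and 3 of these were among the 5 at scaffold positions, which could not be compared with the deposited regions.

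The study profiled tumours that arose spontaneously in mice carrying CAG-CreER and Rosa26-SmoM2, by ChIP-seq with the J1 antibody against Brg1 and Brm. Brg1, encoded by Smarca4, and Brm, encoded by Smarca2, are the alternative ATPases of the BAF (SWI/SNF) chromatin remodelling complex, so a region listed here can hold either. SmoM2 is an activated form of Smoothened, the transducer of Hedgehog signals, and the CAG promoter that drives the CreER is active in many cell types. There was 1 ChIP library and 1 input library from the same genotype; the input is not analysed here. The sources used here state neither the age nor the number of the animals.

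Transfer RNA genes are short genes read by RNA polymerase III (Pol III). Factor TFIIIC recognises promoter elements inside the gene and places TFIIIB just upstream of it, and TFIIIB then recruits the polymerase. Many copies exist for most amino acids. Mouse symbols carry the amino acid as a letter and then the anticodon, so that n-TPagg2 is a proline gene with anticodon AGG. A large share of mouse tRNA genes stands in clusters, the best known of them beside the main histone gene cluster on chromosome 13.

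The deposited ChIP list held 5727 enriched regions (islands), whose median was 68 reads, and the depth of the library is unknown. Each island has the authors' count of reads, which was used here to describe and rank islands within the list. Of 6 marker genes of the granule lineage and Hedgehog signalling, 4 had an island within 1 kb of a gene end (Atoh1, Barhl1, Gli1 and Mycn). The island nearest to Zic1 lay 1195 bp outside the gene, and that of Ptch1 lay inside the gene, 2768 bp from its end. Among 4 liver and muscle markers, Acta1 had an island and Alb, Apoa1 and Ckm had none. Over all protein-coding genes, 9.86% (2121 of 21519) had an island within 1 kb of either end. With 1 library there is no error between animals. The intervals below are Wilson 95% intervals for shares and exact Poisson 95% intervals for reads. They cover counting error only and treat genes as independent, although neighbours share islands. No test between gene classes or groups was made.

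Brg1 islands lay at about 1 in every 5 of these tRNA genes, although the nearest coding gene end was over 5 kb away. An island lay within 1 kb of 56 of the 297 genes (18.9%, interval 14.8 to 23.7). These genes shared 25 distinct islands, which were 0.437% of the list. Among all other annotated genes at the same distance from coding gene ends, percent called was 3.2 (675 of 21076). Among other genes of at most 200 bp at that distance, which offer a target of similar size, it was 1.38 (48 of 3467). Of the sequence over 5 kb from coding gene ends, 0.691% lay within 1 kb of an island.

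By class, the share was 3.46% for microRNA genes (28 of 809), 1.54% for snRNA genes (13 of 844), 0.377% for snoRNA genes (4 of 1060) and 0.477% for pseudogenes (40 of 8380), all at over 5 kb from coding gene ends. The lncRNA genes, which are longer and so offer a larger target, were at 6.54% (575 of 8798). For protein-coding genes the share with an island within 1 kb of either end was 9.86% (2121 of 21519), and it was 5.28% when each gene end was counted on its own. The tRNA genes within 5 kb of a coding gene end stood at 38.7% (41 of 106, interval 30 to 48.2), where islands of coding gene ends are also counted. The interval of the 297 genes lay above the shares of the other distal classes and below the interval of the tRNA genes near coding genes.

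**Figure D1:**
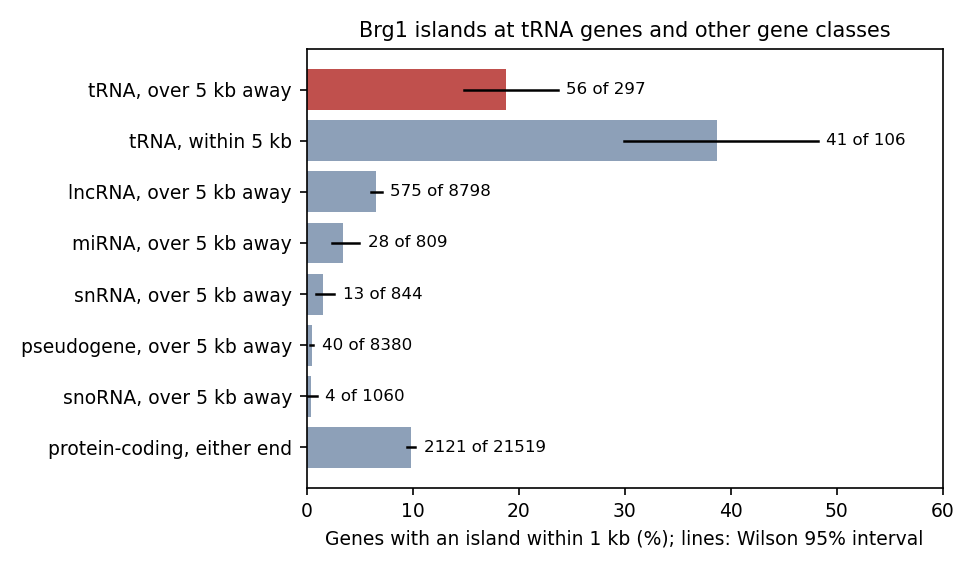
Share of genes with a Brg1 island within 1 kb (x axis, percent) for tRNA genes, for other classes over 5 kb from coding gene ends, and for protein-coding genes by either end. Bars are shares, black lines Wilson 95% intervals and labels the counts; tRNA genes away from coding genes stand at 18.9%, and the snRNA and snoRNA classes at 1.54% and 0.377%.

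Islands were most frequent within 1 kb of coding gene ends and least frequent beyond 50 kb. Of tRNA genes within 1 kb of a coding gene end, 24 of 49 (49%) had an island. At 1 to 5 kb it was 17 of 57 (29.8%), at 5 to 10 kb 24 of 79 (30.4%), and at 10 to 50 kb 30 of 146 (20.5%, interval 14.8 to 27.8). Beyond 50 kb it was 2 of 72 (2.78%, interval 0.765 to 9.57). Of the 72 genes in the last class, 42 were cysteine genes of chromosome 6, described below. Just inside the 5 kb limit stood n-TVaac5 (5041 bp from a coding gene end), n-TGgcc7 (5061) and n-TTtgt3 (5071), and just outside it n-TTagt1 (4949) and n-TKctt24 (4905). The 16 members inside a coding gene had islands in 3 cases, the lysine gene n-TKctt10 and the alanine gene n-TAtgc9 inside Trim7 and the glycine gene n-TGgcc9 inside Trim2.

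Most of these islands overlapped a tRNA gene. The choice of islands within 1 kb favours such overlap, and how much it adds was not estimated. Of the 56 genes, 51 overlapped the island itself, and 24 of the 25 islands overlapped a tRNA gene. The median distance from the middle of an island to the middle of the nearest tRNA gene was 180 bp, and it was at most 500 bp in 18 of the 25. The exceptions among the 56 were n-TStga1, 15 bp from the island, n-TMcat8 (101 bp), n-TRcct2 (594 bp), n-THgtg3 (899 bp) and n-TQttg4 (919 bp). Just outside the 1 kb window stood the phenylalanine gene n-TFgaa2 (1094 bp), the asparagine gene n-TNgtt12 (1224 bp), n-TQttg5 (1482 bp), n-THgtg5 (1504 bp) and n-TKctt14 (2002 bp). Each of these 5 belonged to a cluster in which other members had the island.

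The distance rule for members largely keeps protein-coding gene ends away from these islands, but it does not exclude lncRNA ends. None of the 25 had a protein-coding gene end within 1 kb, and 4 reached to within 5 kb of one. A lncRNA end lay within 1 kb of 8 islands. In all, 10 islands had the end of some other gene within 1 kb, the microRNA gene Mir760 among them, and 15 had none. Whether an island belongs to the tRNA gene or to such a neighbour cannot be told apart.

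Of the 25 distinct islands, 20 lay at clustered genes and 5 at isolated genes, while 224 of the 297 members were clustered. A gene was counted as clustered when it stood in a chain of tRNA genes with gaps of at most 10 kb, and as isolated otherwise. Of 224 clustered genes 51 had an island (22.8%, interval 17.8 to 28.7), and of 73 isolated genes 5 did (6.85%, interval 2.96 to 15.1). The intervals did not overlap, but clustered genes are not independent, and 17 of the 25 islands lay at over 1 member. Counted by locus, 18 of 51 clusters had at least 1 member with an island (35.3%, interval 23.6 to 49), a count to which a cluster brings more sequence than a single gene.

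The median distance from a coding gene end was 17.8 kb for clustered and 16.7 kb for isolated genes. Without the cysteine genes of chromosome 6, 10 of 177 clustered genes and 20 of 71 isolated genes lay beyond 50 kb. At 5 to 10 kb from a coding gene end, 22 of 60 clustered genes (36.7%) and 2 of 19 isolated genes (10.5%) had an island. At 10 to 50 kb the counts were 29 of 113 (25.7%) and 1 of 33 (3.03%). Beyond 50 kb they were 0 of 51 (upper limit of the interval 7%) and 2 of 21 (9.52%). Without the cysteine genes of chromosome 6 the clustered count beyond 50 kb was 0 of 10 (upper limit 27.8%).

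Tight spacing marked the clustered genes with islands. Among genes whose nearest other tRNA gene lay within 500 bp, 31 of 57 had an island (54.4%, interval 41.6 to 66.6). At 500 to 1000 bp it was 11 of 59 (18.6%), at 1000 to 2000 bp 6 of 44 (13.6%), and at 2000 to 5000 bp 2 of 48 (4.17%). Genes with a neighbour at 5000 to 10000 bp stood at 1 of 16. With all members counted, the class within 500 bp was the one whose interval did not overlap that of isolated genes. The intervals were 10.7 to 30.4 at 500 to 1000 bp and 6.4 to 26.7 at 1000 to 2000 bp. Without the cysteine genes of chromosome 6 the shares were 54.4%, 26.8%, 20%, 5.26% and 9.09% in the same order of spacing, and 7.04% for isolated genes. The interval at 500 to 1000 bp was then 15.7 to 41.9 and also did not overlap that of isolated genes, 3.05 to 15.4. The median distance to the next tRNA gene was 399 bp for the 51 clustered genes with an island and 1351 bp for the 173 without. Since tight neighbours fall under the same island, groups were also counted once. Of 24 groups chained at up to 500 bp, 13 had an island (54.2%, interval 35.1 to 72.1). Of 167 clustered genes outside such groups, 20 had one (12%, interval 7.89 to 17.8). These counts differ in unit, since a group brings more genes and more sequence than a single gene.

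**Figure D2:**
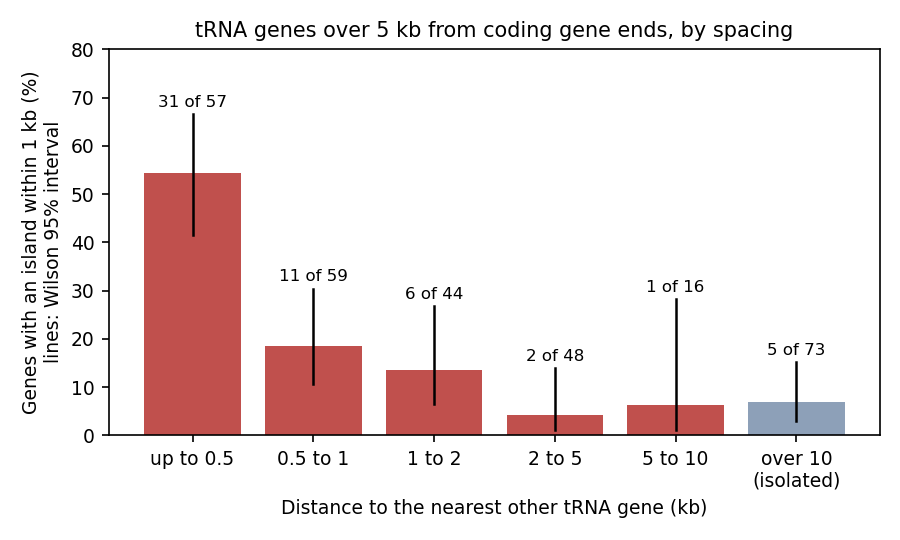
Share of tRNA genes with an island within 1 kb (y axis, percent) by distance to the nearest other tRNA gene (x axis, kb), with Wilson 95% intervals and counts. The share is 54.4% for neighbours within 500 bp and between 4.17% and 18.6% in the other classes; the grey-blue bar holds the isolated genes.

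Cluster size showed no steady rise. Clusters of 2 genes had an island in 6 of 18 cases, those of 3 to 5 in 6 of 19, and those of 6 to 9 in 5 of 8. Of the 6 clusters with 10 or more tRNA genes, 1 had an island. In 8 of the 18 clusters with islands every member had one within 1 kb, and in 10 some did.

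The island with the most reads covered a compact cluster on chromosome 3. It held 142 reads (interval 120 to 167) over 4200 bp (chromosome 3, 96499078 to 96503277, mm10) and took in the lysine gene n-TKctt16, the histidine gene n-THgtg8, the glycine gene n-TGtcc7 and the glutamate gene n-TEctc13. The asparagine gene n-TNgtt12, at the edge of that cluster, lay outside. The next was on chromosome 14 (51063126 to 51066925) with 134 reads (interval 112 to 159), over the leucine gene n-TLaag8, the proline gene n-TPagg4 and the threonine gene n-TTtgt3. On chromosome 1 an island of 108 reads (165641070 to 165643269) covered a pair of proline genes, n-TPagg2 and n-TPcgg2. Its reads stood at percentile 99.3 among the islands of the same width, 2200 bp, the highest of the 25.

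Clusters with the most members at islands lay on chromosomes 13, 19 and 3. One on chromosome 13 (21160785 to 21172942) had islands at 7 of its 9 genes. An island of 41 reads covered n-TEctc11 and n-TFgaa4, and one of 92 reads over 3000 bp covered the methionine genes n-TMcat14 and n-TMcat15, n-TKctt28, n-TLaag7 and n-TLaag5. Its last genes, n-TQctg7 and n-TLcaa4, lay 2020 and 2506 bp beyond the island. On chromosome 19 (12002236 to 12012338) an island of 91 reads covered the last 5 of 8 genes, n-TKctt30, n-TLtaa4, n-TRtct1, n-TVtac1 and n-TVtac2, and the first 3 genes had none within 1 kb.

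A cluster of 4 genes on chromosome 3 (19627959 to 19629067) lay whole under an island of 75 reads. Its members were the arginine gene n-TRacg3, the tyrosine genes n-TYgta1 and n-TYgta2 and the alanine gene n-TAagc14. On chromosome 13 (22015791 to 22030173) an island of 82 reads covered n-TRacg1 and the serine gene n-TScga1, and one of 103 reads covered the valine gene n-TVcac8 and the isoleucine gene n-TIaat7. Further along (23517203 to 23530419) an island of 52 reads lay at n-TGgcc6, n-TMcat6, n-TStga1 and the glutamine gene n-TQttg4. In each of these clusters the members at an island followed one another without a gap, and those without one stood at an edge of the cluster.

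Pairs and triplets of neighbours on chromosomes 11, 7, 2 and 17 also shared islands. On chromosome 11 an island of 88 reads (48855499 to 48858098) covered n-TPtgg4, n-TVaac7 and n-TLaag6, and one of 60 reads at 10 reads per 200 bp covered n-TKctt10 and n-TAtgc9 inside Trim7. On chromosome 7 a pair of proline genes, n-TPtgg8 and n-TPagg7, shared an island of 43 reads. On chromosome 2 the alanine and glycine genes n-TAcgc8 and n-TGgcc8 shared one of 42 reads over 800 bp, and the histidine genes n-THgtg4 and n-THgtg3 one of 39 reads. On chromosome 17 the arginine genes n-TRcct2 and n-TRccg2 shared one of 48 reads. The islands on chromosomes 7, 2 and 17 also had a lncRNA end within 1 kb. The other islands at clustered genes held 75 reads at n-TVcac9 and n-TRacg5, 49 at n-TGgcc7 and 46 at n-TMcat8, all on chromosome 13, and 52 at n-TGgcc4 on chromosome 1. A lncRNA end also lay within 1 kb of the islands at n-TVcac9, at n-TLaag8 (134 reads), at n-TMcat14 (92 reads) and at the isolated gene n-TGgcc9 (54 reads).

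**Figure D3:**
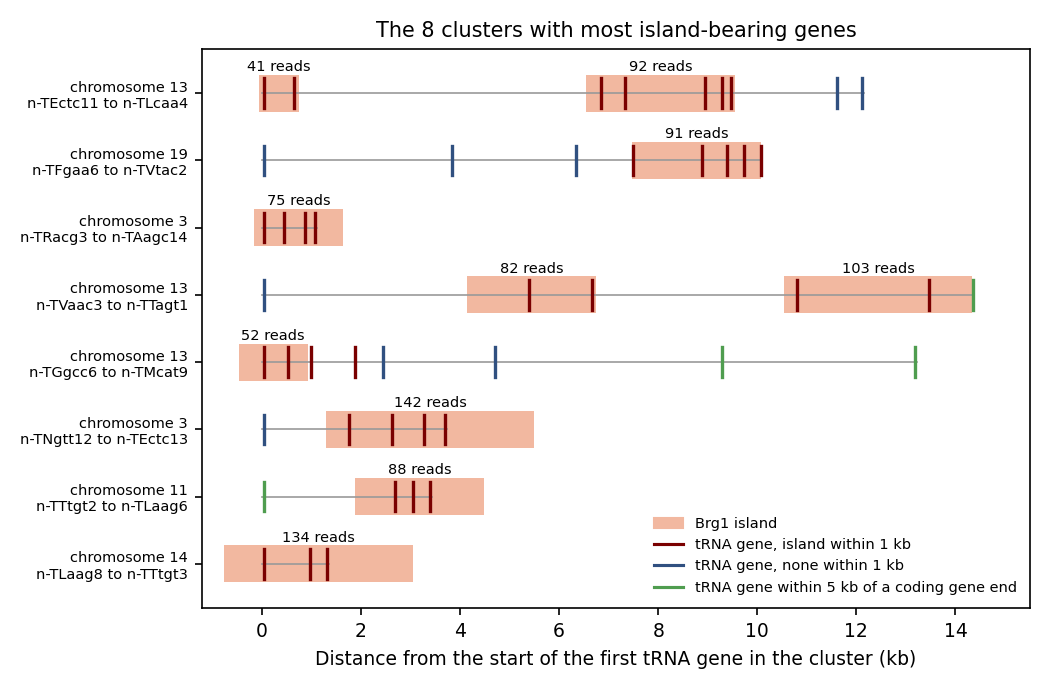
Maps of the 8 clusters with most members at an island, drawn from the first tRNA gene of each (x axis, kb). Shaded boxes are islands with their reads and vertical lines are tRNA genes, coloured by whether an island lay within 1 kb or a coding gene end within 5 kb; runs of closely spaced genes lie under single islands of 41 to 142 reads.

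Of the isolated genes, 5 had an island, and each overlapped it. The arginine gene n-TRtct2 on chromosome 3 (122292948 to 122293032) lay in an island of 109 reads over 4000 bp, which also reached to within 1 kb of Mir760. The tryptophan gene n-TWcca5 on chromosome 11 (61407916 to 61407987) lay in one of 87 reads over 3800 bp. The asparagine gene n-TNgtt9 on chromosome 2, 85.3 kb from a coding gene end, had one of 56 reads, n-TGgcc9 on chromosome 3 one of 54 reads and the leucine gene n-TLcaa1 on chromosome 13 one of 37 reads. Of the other 68 isolated genes, 52 had their nearest island over 100 kb away, and the median distance for those 68 was 328 kb. Among these was n-TRtct5, an arginine gene known for its expression in the mouse central nervous system and named here after its value was seen, with the nearest island 530 kb away.

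Islands were spread over most amino acids. Of the 20 amino acids among the members 18 had at least 1 gene with an island, and of 47 anticodons 31 did. Arginine genes had islands in 7 of 15 cases (46.7%, interval 24.8 to 69.9) over 6 distinct islands, and proline genes in 6 of 14 (42.9%, interval 21.4 to 67.4) over 4. Glycine and leucine genes had 6 of 20 and 6 of 19, methionine genes 4 of 12, histidine genes 3 of 8 and valine genes 5 of 18. Lysine genes had 4 of 21, alanine genes 3 of 29, glutamate and serine genes 2 of 13 each, and tyrosine genes 2 of 3, both in 1 island. Asparagine, glutamine, isoleucine, phenylalanine, threonine and tryptophan had 1 each. The intervals of all amino acids with an island overlapped one another, so their order is a description.

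Within an amino acid, anticodons differed in count. Among glycine genes 5 of 11 with anticodon GCC had an island and 0 of 4 with CCC. All 4 leucine genes with anticodon AAG had one, over 3 islands, and 0 of 8 with CAG did. Arginine genes with ACG had 3 of 4. Glutamine genes with CTG had 0 of 8, and 1 of 4 with TTG did. These are small families, and 13 of the 25 islands held members of more than 1 amino acid, so that counts by anticodon also follow which genes are neighbours.

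**Figure D4:**
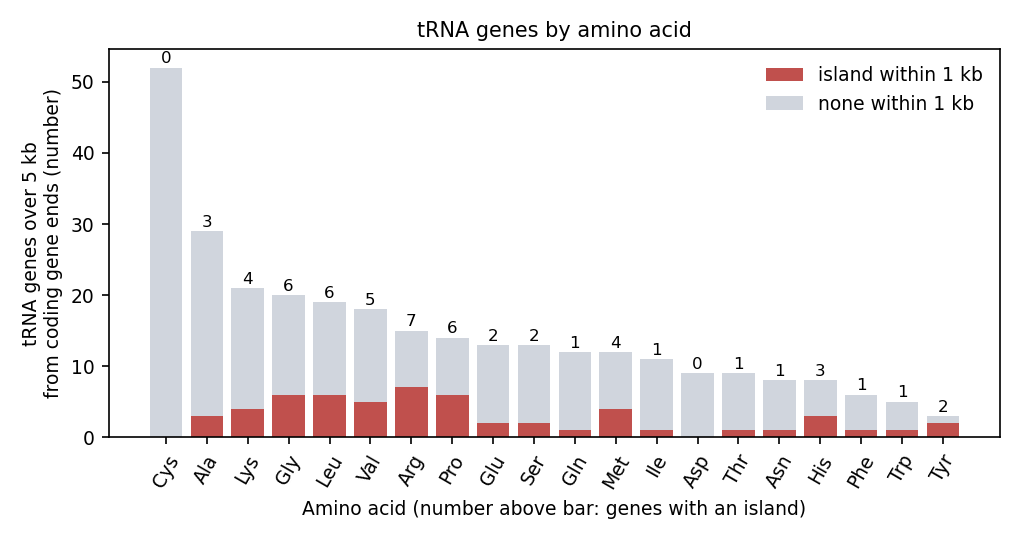
Number of tRNA genes over 5 kb from coding gene ends for each amino acid (y axis), split into genes with an island within 1 kb (red, number above the bar) and without (grey). Arginine has 7 of 15 and proline 6 of 14, while cysteine has 0 of 52 and aspartate 0 of 9.

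Cysteine and aspartate genes had none. None of 52 cysteine genes had an island, and 3 would have made 5.77%. The upper limit of their interval, 6.88%, lay below the intervals of arginine, glycine, leucine, proline, valine, lysine, methionine, histidine and tyrosine genes. Of these, 49 lay on chromosome 6 between 47978997 and 48363603, 47 of them in 5 clusters, with the nearest island 100 to 331 kb away. The biggest of these clusters (48244316 to 48317586) had 22 genes with the nearest island 236 kb away, and another (48332840 to 48363603) had 10 with the nearest 190 kb away. The 49 genes lay at a median of 84.9 kb from a coding gene end, and tRNA genes there had a median spacing of 1490 bp, against 11.4 kb and 399 bp for clustered genes with islands. How reads matching several gene copies were treated is not given. The part of distance, spacing and such reads in this count was not tested. The interval of the cysteine genes treats them as independent, although 49 lay together on chromosome 6. Of the 5 cysteine genes near coding genes 2 had an island, n-TCgca55 and n-TCgca54, which shared the same one. The share of all tRNA genes near coding genes was 38.7% (41 of 106). The 9 aspartate genes had none, where 3 would have made 33.3%, and the upper limit of 29.9% takes in the share of all members. Of the 7 aspartate genes near coding genes 3 had an island, not far from the share of all tRNA genes near coding genes. Without the cysteine genes of chromosome 6, the share was 22.6% over all members (56 of 248) and 28.8% in clusters (51 of 177).

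Other large clusters also stood without islands. On chromosome 13 none of the 13 members of a cluster of 15 genes (21907111 to 21940995) had one, the nearest island lying 36.8 kb away, and none of 10 in another (21234045 to 21279768), with the nearest 33.3 kb away. On chromosome 1 none of the 10 members of a cluster of 15 genes (171064164 to 171081946) had one, with the nearest 26.5 kb away, at n-TGgcc4 in the neighbouring cluster. The 15 members on chromosome X had none, at 396 to 3612 kb from the nearest island, on a chromosome with 23 islands in all (3 of 15 would have made 20%). Chromosome 13 held 91 members, of which 20 had islands (22%, interval 14.7 to 31.5), and 6 of its 18 clusters did.

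The islands at these genes were rather narrow. Their median reads were slightly below that of the list, but their median rank among islands of the same width was above the middle. Their reads ranged from 37 to 142 with a median of 60, against 68 over the whole list and 67 over the 3346 islands more than 5 kb from coding gene ends and not near a tRNA gene. The median width was 1600 bp against 2200 bp over the list, and the median density was 7 reads per 200 bp against 6.27. Since reads depend on width, they were also ranked among islands of the same width. There the median percentile was 69.2 against 49.8 over the whole list, and 16 of the 25 islands stood above the 50th percentile. Of the 20 islands at clustered genes 15 did (median percentile 78.8), and of the 5 at isolated genes 1 did (median 37.9). The 8 islands with 3 or more tRNA genes had a median of 91.5 reads, a median width of 2800 bp and a median percentile of 85.8 within width. The 10 with 2 tRNA genes had a median of 48.5 reads, a median width of 1300 bp and a median percentile of 61.5. The 7 with 1 tRNA gene had a median of 54 reads, a median width of 1600 bp and a median percentile of 40.3. Reads and width thus did not rise steadily with the number of genes, and a wider island can take in more genes. None of the 25 was among the 14 islands of the list with over 3 times its median density.

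**Figure D5:**
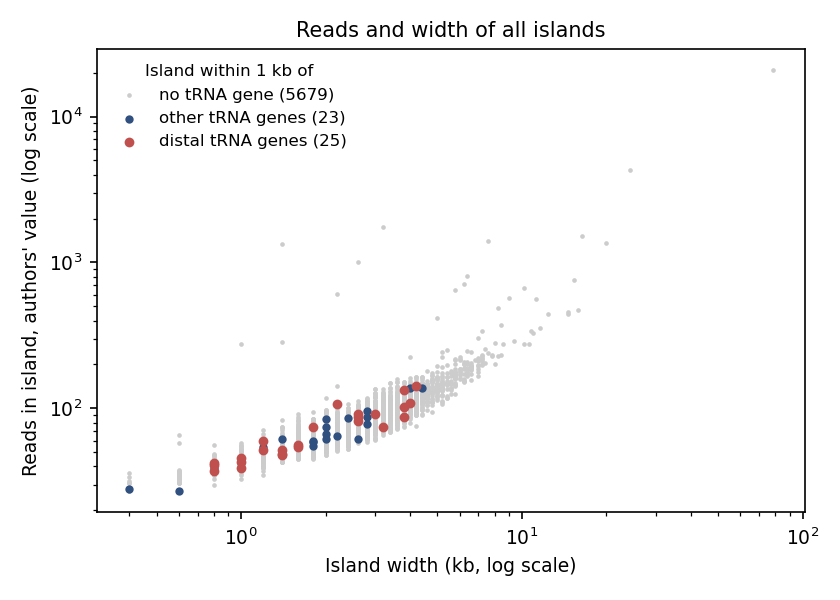
Reads against width (both log scales) for all 5727 islands, with islands within 1 kb of tRNA genes in colour. The 25 islands at tRNA genes away from coding genes (red) lie between 37 and 142 reads and 800 and 4200 bp, inside the band of the other islands and away from the few of very high density.

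Genes that make and charge tRNA were compared at their own ends, where percent called over all protein-coding genes was 9.86. Of 67 genes for Pol III subunits, Pol III factors, tRNA processing and cytosolic aminoacyl-tRNA synthetases, 6 had an island at most 1 kb from an end, a share near that of all coding genes. None of the 17 genes for Pol III factors had one, among them the TFIIIC subunits, Brf1, Bdp1 and the repressor Maf1 (upper limit 18.4%). The nearest misses in that list were Bdp1 at 1.55 kb and Brf1 at 2.44 kb, which encode subunits of TFIIIB, and Snapc5 at 1.9 kb, which encodes a subunit of the snRNA activating complex. Among genes for tRNA processing, Rpp38 had an island of 82 reads and Pop5 one of 38, and both encode subunits of RNase P. Of the 20 synthetase genes 2 had an island, Yars with 65 reads and Cars with 49. None of 7 other genes read by Pol III (Rmrp, Rn7sk, Rpph1, Rny1, Rny3, Vaultrc5 and Bc1) had an island within 1 kb. The upper limit of 35.4% takes in both the share of the tRNA genes, 18.9%, and the 1.38% of other short genes away from coding genes. The nearest was 2.42 kb from Rny3, a Y RNA gene, and 255 kb or more from Rmrp, Rn7sk, Rpph1 and Vaultrc5.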

How the data were processed

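Chromatin of dissociated tumour cells was crosslinked, sonicated and immunoprecipitated, per the labels' protocols. Tools listed, with no role, in the submitters' processing notes were SICER 1.1, Bowtie 0.12.7 and Picard 1.127, and the builds listed were mm10 and mm9. How SICER was set, whether the input was used and how reads matching several tRNA gene copies were treated is not given in the sources used here. In the authors' deposited list, the value column gives a whole-number count per island, taken as reads from its values. Absence of an island does not show absence of Brg1.

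Positions are 1-based and were read as mm10. Some marker genes and tRNA genes met islands there, but overlap on mm9 was not computed, so they do not decide the build. A call on mm9 with later conversion, which could lose islands, was not tested. RefSeq GRCm38.p6 gave gene extents without strand. Genes at positions below 3 Mb on chromosomes 1 to 19 and X, where the mouse assembly has no sequence, were taken as scaffold positions and left out (340 genes, 5 of them tRNA genes). An island counted when within 1 kb of the tRNA gene. Python 3.11.15, pandas 2.3.3 and scipy 1.17.1 were used, and the distance and chaining steps were tested on simulated data. The planned search for promoter motifs was not run because the sequence table used held none of these genes.

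Genes named are the 15 with most reads in the island (ties included), at least 1 per amino acid, the 5 clusters with most members and the 5 with most members at islands, the 5 nearest misses and up to 4 per list. The members and lists were chosen with earlier results of these data known. Alternatives were other windows, island filters, distances and chain gaps. Some genes of these lists are not reported here.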

Additional observations from a re-analysis of the deposited data

How the results depend on the processing

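Of 73 alternative values, 55 stayed within the interval of the reported share, within 1.5 times the reported count or, for the median reads, within the interquartile range of the islands, and 18 did not. With a window of 5 kb the share with an island was 23.9% over all members and 29% in clusters. When islands below the median reads were left out, it was 11.4% over all members, 14.3% in clusters and 2.74% for isolated genes, on 12 islands in 9 clusters. With the 25% of islands with most reads it was 8.75%, 10.7% and 2.74%, on 9 islands in 7 clusters. With members over 10 kb from coding gene ends it was 14.7% over all and 17.7% in clusters, on 13 islands in 9 clusters. The next 2 exclusions were chosen after seeing the data: without the cysteine genes of chromosome 6 the share in clusters was 28.8%, and without chromosome 13 there were 16 distinct islands. Clustered genes had the higher share under every one of these settings and of the other settings tried, isolated genes lying between 2.74% and 8.22%. No paired analysis was possible because there was 1 ChIP library. The planned promoter search was not run. The unknown depth limits what the absence of an island shows.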
